A study of Mus musculus with 16 samples.

Results

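At 797 regions of the mouse genome that lay close to a gene end, a Foxn3 peak and an Rfx3 peak overlapped and no Foxn4 peak was present. They were found by merging all peaks of 3 CUT&RUN peak lists that overlapped by at least 1 bp, which gave 6155 regions. A region was kept when it held Foxn3 and Rfx3 peaks without a Foxn4 peak and its midpoint was within 1 kb of either end of a protein-coding gene. The 797 regions were 12.9% of all merged regions, 33.9% of the 2352 that lay at gene ends, and 58.6% of the 1361 regions of this factor combination anywhere (95% Wilson interval 55.9% to 61.1%). The members were thus selected on the presence and absence of called peaks and on position, and neither is a finding. For comparison, 530 gene-end regions held peaks of all 3 factors and 507 held an Rfx3 peak alone.

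The tissue was whole retina of CD-1 mice, an outbred strain, at embryonic day 16, pooled over animals and dissociated, with about 300000 cells in each assay. CUT&RUN uses an antibody to tether micrococcal nuclease to a chromatin protein in cells that have not been fixed, and the DNA released next to it is sequenced. The series has 16 libraries: 4 with anti-Foxn3 from a pair of experiments, 2 with anti-Foxn4, 2 with anti-Rfx3, and as controls 4 with rabbit IgG for Foxn3, 2 with rabbit IgG for Rfx3 and 2 with mouse IgG for Foxn4. Digestion took 1 h, but about 12 h for the Foxn4 and mouse IgG libraries, so the absence of a Foxn4 peak also reflects another antibody species and another digestion time, and these cannot be told apart.

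Each antibody is represented by 1 peak list, with 2794 peaks for Foxn3, 2956 for Foxn4 and 3981 for Rfx3. How libraries were combined, the calling threshold and the use of the IgG libraries are not given in the sources used here, and the depth of each library is unknown. No value therefore has a spread between replicates, and the 95% intervals (Wilson for a share, Newcombe for a difference of shares) cover counting error only, since regions and genes are not replicates and neighbours share regions. The retina at this age holds progenitors and several young neuron types. A peak found in few cells and a weak peak found in many cannot be told apart here.

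Rfx3 belongs to the RFX family, winged-helix transcription factors that bind as dimers to the X-box, an inverted repeat with arms close to GTTGCC and GGCAAC. RFX factors are known as regulators of genes for cilia, the microtubule-based organelles that sense signals in most cells as single primary cilia and beat in others as motile cilia. Foxj1, a forkhead factor, is the regulator best known for motile cilia and works with RFX factors. Foxn3 and Foxn4 belong to another branch of the forkhead family. Foxn4 acts in retinal progenitors that give rise to amacrine and horizontal cells, and the Foxn3 DNA-binding domain is known to recognise both the classical forkhead letters and an unrelated forkhead-like core, GACGC. In the retina, photoreceptors build their light-sensing outer segments from a modified primary cilium.

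Promoter sequences of 8 ciliary genes with a member region are shown first, because the arrangement of the X-box recurs through the results. Each is the window from 250 bases before to 50 bases after an annotated start of transcription, from RefSeq on GRCm38.p6 (the mm10 assembly), written 5′ to 3′ on the strand of the gene. Capitals mark letters that match an X-box: GTNNCCNNGGNNAC, the same with 1 or 3 bases between the arms, or a looser pyrimidine-purine form of the same 14 places. The first 6 were the highest by score order whose window held GTNNCCNNGGNNAC, taken among the 4 top genes of each ciliary list. The last 2 were the highest of the same genes that held none of the Rfx letters first searched (that X-box, GTTGCC or GTTACC), and the looser form was added after they had been seen.
Cfap298, chr16:90934800-90935099, minus strand: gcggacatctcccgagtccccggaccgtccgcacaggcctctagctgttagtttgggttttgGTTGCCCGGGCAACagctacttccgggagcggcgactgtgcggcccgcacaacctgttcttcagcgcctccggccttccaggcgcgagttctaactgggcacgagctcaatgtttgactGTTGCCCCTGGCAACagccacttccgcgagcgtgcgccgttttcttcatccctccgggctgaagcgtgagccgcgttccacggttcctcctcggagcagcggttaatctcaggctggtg
Tctn2, chr5:124598499-124598798, plus strand: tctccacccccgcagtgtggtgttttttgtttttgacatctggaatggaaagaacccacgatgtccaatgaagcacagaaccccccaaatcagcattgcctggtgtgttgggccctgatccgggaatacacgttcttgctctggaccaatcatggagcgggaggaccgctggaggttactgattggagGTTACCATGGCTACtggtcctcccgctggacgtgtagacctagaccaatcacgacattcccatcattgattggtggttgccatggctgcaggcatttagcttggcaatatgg
Bbs7, chr3:36613340-36613639, minus strand: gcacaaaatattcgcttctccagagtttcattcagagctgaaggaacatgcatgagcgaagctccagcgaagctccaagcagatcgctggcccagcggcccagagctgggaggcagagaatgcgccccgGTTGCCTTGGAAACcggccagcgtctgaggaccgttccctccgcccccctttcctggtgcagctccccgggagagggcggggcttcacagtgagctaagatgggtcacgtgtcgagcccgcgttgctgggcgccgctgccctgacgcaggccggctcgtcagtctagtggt
Tctn1, chr5:122264411-122264710, minus strand: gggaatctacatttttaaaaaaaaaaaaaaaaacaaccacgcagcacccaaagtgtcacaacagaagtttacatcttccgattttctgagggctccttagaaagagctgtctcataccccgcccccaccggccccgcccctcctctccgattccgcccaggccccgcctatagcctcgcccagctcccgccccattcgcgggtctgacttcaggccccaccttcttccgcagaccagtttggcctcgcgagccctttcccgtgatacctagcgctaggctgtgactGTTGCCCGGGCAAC
Ift57, chr16:49699044-49699343, plus strand: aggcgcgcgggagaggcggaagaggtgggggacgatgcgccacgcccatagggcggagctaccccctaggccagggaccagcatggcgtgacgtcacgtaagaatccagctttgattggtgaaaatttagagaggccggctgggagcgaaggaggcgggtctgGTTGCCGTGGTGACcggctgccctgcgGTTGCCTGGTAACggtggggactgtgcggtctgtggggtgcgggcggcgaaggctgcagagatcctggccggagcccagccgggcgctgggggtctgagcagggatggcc
Mks1, chr11:87852965-87853264, plus strand: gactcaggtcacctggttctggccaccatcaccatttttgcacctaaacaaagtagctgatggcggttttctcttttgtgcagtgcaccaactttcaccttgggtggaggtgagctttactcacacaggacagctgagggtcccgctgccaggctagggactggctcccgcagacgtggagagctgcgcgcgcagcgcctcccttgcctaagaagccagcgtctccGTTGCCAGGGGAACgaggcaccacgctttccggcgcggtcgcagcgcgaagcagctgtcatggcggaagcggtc
Mok, chr12:110840890-110841189, minus strand: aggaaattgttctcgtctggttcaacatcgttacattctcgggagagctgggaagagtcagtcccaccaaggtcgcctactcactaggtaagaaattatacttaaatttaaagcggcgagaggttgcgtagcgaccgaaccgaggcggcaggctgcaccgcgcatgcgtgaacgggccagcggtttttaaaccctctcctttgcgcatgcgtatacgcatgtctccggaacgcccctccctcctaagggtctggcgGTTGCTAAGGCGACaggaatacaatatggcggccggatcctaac
Cfap36, chr11:29247223-29247522, minus strand: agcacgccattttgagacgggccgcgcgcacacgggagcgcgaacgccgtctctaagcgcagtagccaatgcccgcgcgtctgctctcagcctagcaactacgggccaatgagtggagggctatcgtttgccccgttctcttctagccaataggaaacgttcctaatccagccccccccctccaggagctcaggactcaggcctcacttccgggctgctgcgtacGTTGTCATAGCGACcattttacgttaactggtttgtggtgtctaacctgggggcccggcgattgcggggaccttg
In Cfap298 and Tctn1 the marked 14 letters were identical, GTTGCCCGGGCAAC, a perfect inverted repeat. Cfap298 and Ift57 each held a further marked match, with 3 bases between the arms in Cfap298 and 1 in Ift57. In Tctn2 the centre of the X-box lay 0 bp from the midpoint of the Foxn3 peak and 112 bp from that of the Rfx3 peak. In Mks1 these distances were 24.5 bp and 113.5 bp, in Ift57 71 bp and 70 bp, and in Bbs7 112.5 bp and 97 bp. In Cfap298 they were 31.5 bp and 20 bp, and in Tctn1 74 bp and 18 bp. The X-box centre was upstream of the start in 5 of the first 6 windows, by 17.5 bp in Mks1 up to 181.5 bp in Cfap298, and 42.5 bp downstream of it in Tctn1. Tctn2 also held 5 CCAAT boxes. Mok had GTTGCTAAGGCGAC and Cfap36 GTTGTCATAGCGAC in the looser form.

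The regions sat at starts of transcription rather than at gene ends in general. Strand was known for every gene in reach of 654 regions, and in 618 of these (94.5%, 92.5% to 96.0%) the end or ends in reach were starts only. Another 28 reached both a start and an end, and 8 reached an end only. In the regions with all 3 factors the share at starts only was 95.1% (430 of 452), and in those with Rfx3 alone 89.9% (372 of 414). The distance from a region's midpoint to the nearest gene end had a median of 89.5 bp (quartiles 37.5 and 178 bp). It was at most 100 bp in 427 regions and over 500 bp in 63.

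Relative to the nearest start of transcription in the RefSeq promoter table, available for 656 regions, the midpoints had a median position of -60.25 bp, with quartiles at -137 and 2.25 bp, where negative is upstream. They lay within 100 bp of the start in 361 regions (55.0%) and downstream of it in 177 (27.0%). The plot of distances to the start shows this single peak just upstream. The regions were 218 to 1659 bp wide, with a median of 494 bp, against 601.5 bp for regions with all 3 factors and 444 bp for regions with Rfx3 alone.

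**Figure D1:**
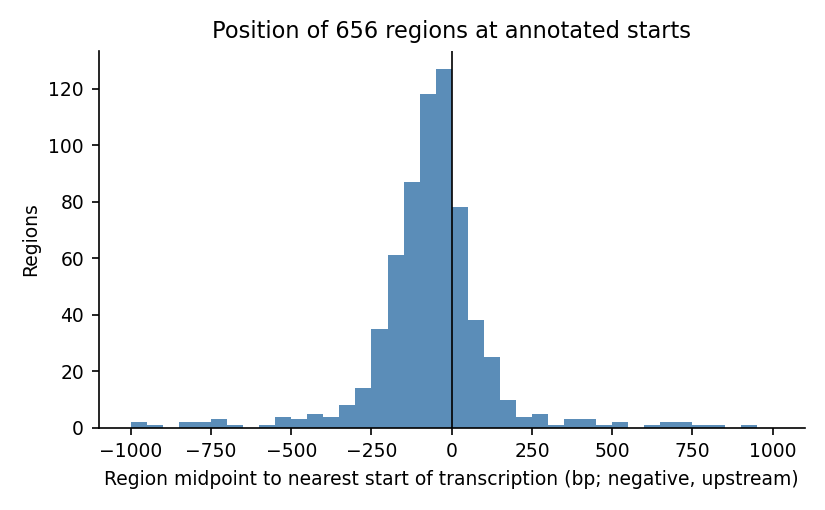
Distance in bp from the midpoint of each of 656 regions to the nearest annotated start of transcription (x axis, negative is upstream) against the number of regions in each bin (y axis). The median is -60.25 bp, and 361 regions lie within 100 bp of the start.

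Some regions had starts of both strands in reach. In 115 of the 654 regions (17.6%, 14.9% to 20.7%) the ends in reach were 2 starts on opposite strands. Whether the region lay between these starts or inside one of the genes was not counted. The share was 19.0% (86 of 452) where all 3 factors had a peak and 8.45% (35 of 414, 6.14% to 11.5%) with Rfx3 alone. More than 1 protein-coding gene was in reach of 194 of the 797 regions (24.3%). An end of a non-coding gene was within 1 kb of 98 regions, a long non-coding RNA in 86 of them, a microRNA in 4 and a tRNA in 4. Which of the genes in reach a region acts on was not measured.

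The Foxn3 and Rfx3 peaks of a region overlapped by rule, which limits the gap between their midpoints and favours containment. The gaps and the containment below therefore describe the members and are not a finding. The median gap between the Foxn3 and Rfx3 midpoints was 46 bp, with quartiles of 20.5 and 89 bp. It was at most 100 bp in 629 regions (78.9%). In gene-end regions with all 3 factors the median gap was similar, at 41.25 bp (quartiles 20.6 and 81.4 bp). The Foxn3 peak lay wholly inside the Rfx3 peak in 437 regions (54.8%) and the reverse held in 84. Rfx3 peaks were the wider ones in 618 regions, with a median width of 453 bp against 342 bp. Only 13 regions held more than 1 peak of a factor, among them those at Cfap61 and Crnkl1, at Tmed10, at Ccdc40 and Tbc1d16, at Mier1 and Wdr78, and at Caps2. A member could hold no Foxn4 peak by rule, and distances to Foxn4 peaks were not computed for other places, so these values only describe the members. The nearest Foxn4 peak was a median of 209196 bp away, and over 10 kb away in 767 regions (96.2%). It was within 500 bp in 3 regions: 71 bp from the region shared by Hdlbp and Septin2, 202 bp at Sap130 and 374 bp at Dynll1, which encodes a dynein light chain.

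The score that the authors gave each peak has no stated scale and is used here as a percentile only, the percentage of peaks in the same list that score lower. The members covered nearly the whole range of both lists and lay towards the top of each. Their Foxn3 peaks had a median percentile of 66.9 (quartiles 39.7 and 85.4) and their Rfx3 peaks of 71.1 (40.9 and 86.9). The medians were 45.7 and 39.9 in gene-end regions with all 3 factors, and 30.3 for the Rfx3 peaks of regions with Rfx3 alone. As these scores belong to the peaks that chose the regions, they describe the members and are not tested. Both peaks were in the upper 50% of their lists in 472 regions (59.2%) and both in the lower 50% in 169. Both were in the top 25% in 231 regions and both in the lowest 25% in 55. The percentiles differed by over 50 points in 28 regions.

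**Figure D2:**
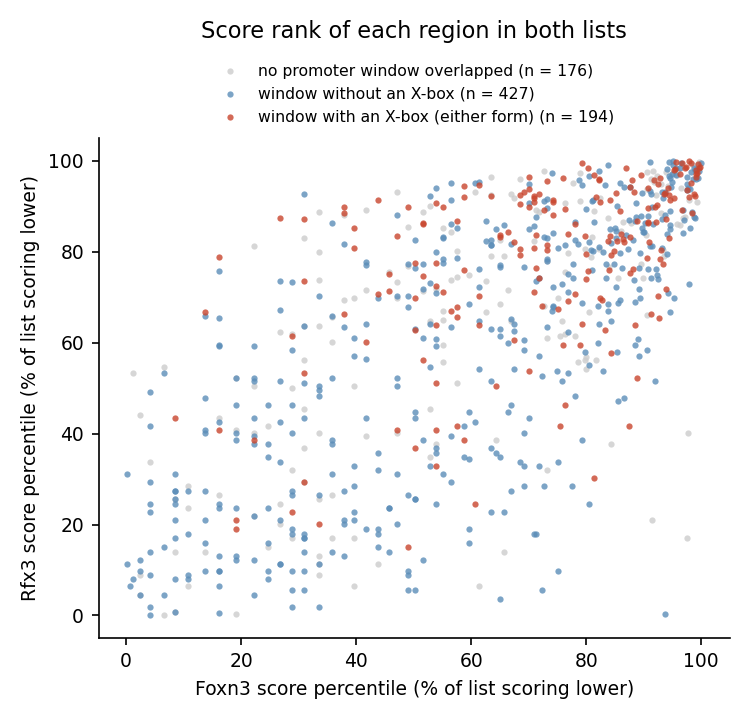
Percentile of the Foxn3 peak (x axis) and of the Rfx3 peak (y axis) within its own list, both in percent of the list scoring lower, for each of the 797 regions. Colours show whether an overlapped promoter window holds an X-box of either form. In 472 regions both percentiles are at least 50, and points with an X-box are concentrated at the upper right.

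Ordered by the mean of these percentiles, 6 of the first 10 regions were at genes of the lists of ciliary genes and their regulators. Of all 1004 protein-coding genes in reach of a member region, 48 were in the primary cilium lists, 34 in the motile cilium lists and 4 in the regulator list. Most genes in reach of a member region were thus in none of these lists. The first region (chr8:123518576-123518987) lay 53.5 bp upstream of the start of Gas8, which encodes a subunit of the nexin-dynein regulatory complex that coordinates beating. It held the highest Foxn3 score in the list, 1444, and an Rfx3 score of 1623 (percentile 99.6), and Dbndd1 was also within 1 kb. The second (chr11:116335282-116335679) was at Foxj1, 18.5 bp from an end of the gene, with scores of 612 for Foxn3 and 2091 for Rfx3, percentiles 99.7 and 99.8, with Rnf157 in reach as well.

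Nek2, a centrosomal kinase that also acts in cilium disassembly, followed (chr1:191821086-191821739), with scores of 501 and 1378. Mok, a kinase related to regulators of cilium length, came next (chr12:110840794-110841472), with scores of 938 and 1084. Cfap298, a factor in the assembly of axonemal dyneins, was sixth (chr16:90934618-90935403), with 585 and 1043. Tctn2, which encodes a tectonic protein of the ciliary transition zone, was ninth (chr5:124598489-124599122), with 293 and 2120. The Foxn3 and Rfx3 midpoints were 2 bp apart at Gas8, 5 bp at Nek2, 43.5 bp at Foxj1 and 112 bp at Tctn2.

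Others among the first 10 were Wdr66, a radial spoke gene of motile cilia, Map9, a microtubule-associated protein of the spindle, Xrcc1, the scaffold of single-strand break repair (with Pinlyp in reach), and Ttf1, the termination factor of RNA polymerase I. Their Foxn3 percentiles ran from 98.1 at Map9 to 99.6 at Ttf1 and their Rfx3 percentiles from 97.8 at Ttf1 to 99.6 at Map9. The Xrcc1 region lay 362 bp downstream of its start. The 5 regions lowest in the order were at genes of general cell functions: Aasdhppt and Kbtbd3, Arrb2 (beta-arrestin), Pabpc1 (a poly(A)-binding protein), Kmt5a (a histone H4 methyltransferase), and Nup98 (a nuclear pore protein) with Pgap2. The Foxn3 scores of these 5 were 10.3 to 12.1 and their Rfx3 scores 12 to 23, at percentiles of at most 6.55.

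In all, 1004 of 21887 protein-coding genes (4.59%) had an end within 1 kb of the midpoint of a member region. This is the background for the counts that follow, in which each gene list is described by how many of its genes had such a region. The comparable counts were 664 genes (3.03%) for regions with all 3 factors and 573 (2.62%) for regions with Rfx3 alone. Genes of the primary cilium had a member region in 48 of 124 cases (38.7%, 30.6% to 47.5%) and genes of the motile cilium in 34 of 71 (47.9%, 36.7% to 59.3%). For regions with all 3 factors the counts were 16 and 4, and for those with Rfx3 alone 15 and 4. The member region reached a second gene for 9 of the 48 and for 9 of the 34. The lists were drawn up with earlier results of these data known, so these counts are a description. They cover only genes matched by symbol or synonym: between 1 and 7 symbols of some lists, the most among dynein subunits, matched no gene in the table and were left out.

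**Figure D3:**
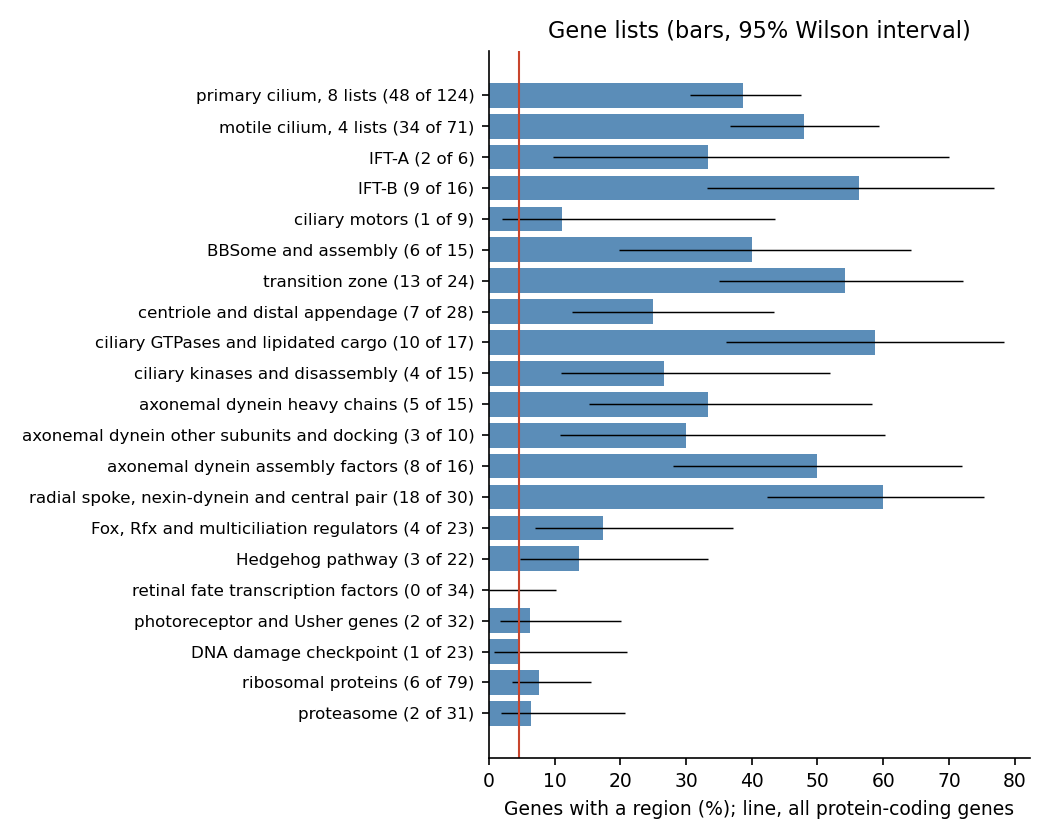
Percentage of the genes of each list with a member region within 1 kb of a gene end (x axis), with the counts beside the names and 95% Wilson intervals as lines. The vertical line is the 4.59% of all protein-coding genes, and the radial spoke, nexin-dynein and central pair list is highest, at 18 of 30.

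Intraflagellar transport moves cargo along the cilium, outwards by the IFT-B complex and back by IFT-A. Of 16 IFT-B genes, 9 had a member region: Traf3ip1, Ift57, Ift22, Ift88, Rabl2, Ift81, Ift80, Ift172 and Ift52, in the order of their scores. The highest, Traf3ip1, had percentiles of 93.7 for Foxn3 and 93.2 for Rfx3, and the lowest, Ift52, had 31.0 and 51.1. Ift88, a core subunit without which cilia do not form, had 94.6 and 66.6. At Ift57 the Foxn3 percentile was 80.4 and the Rfx3 percentile 98.4, with the midpoints 1 bp apart. At Ift22, a small GTPase of the complex, the midpoints coincided. Of 6 IFT-A genes, Ift43 and Wdr35 had a member region and 3 had a region with all 3 factors. Of 9 ciliary motor genes that could be matched by name, 1 had a member region: Dync2li1, the light intermediate chain of the dynein that drives return transport, with percentiles of 68.5 and 96.1. Another 3 symbols of that list matched no gene. Wdr34 and Wdr60, older names for intermediate chains of the same dynein, stand outside the count and were looked up afterwards. Both had a member region, with percentiles of 83.3 and 94.7 at Wdr34 and of 88.5 and 68.9 at Wdr60.

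The BBSome is a coat complex that moves membrane proteins through the cilium. Of 15 genes for it and its assembly, 6 had a member region and 5 had a region with Rfx3 alone. Lztfl1, a regulator of BBSome entry, had percentiles of 95.6 and 98.3, with midpoints 290 bp apart, and Bbs7 94.2 and 94.0 with midpoints 15.5 bp apart. Ttc8 and Bbs5, other BBSome subunits, followed, the first with 72.7 for Foxn3 and 89.1 for Rfx3 and the second with 91.9 and 51.5. Arl6, the GTPase that recruits the BBSome, showed the widest gap among the 6, with 16.2 for Foxn3 and 75.7 for Rfx3.

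The transition zone is the gate at the base of the cilium. A member region was found at 13 of its 24 genes, among them the tectonic genes Tctn1 and Tctn2, Mks1, B9d1, Tmem231, Tmem107, Ahi1, Nphp4, Cep290 and Rpgrip1l. Tctn1 had percentiles of 94.6 and 91.4, Mks1 90.8 and 86.2, and Tmem138, whose region also reached Cyb561a3, 85.8 and 89.1. Tmem67 was the lowest of the 13, with 8.45 and 14.1. Of the 11 genes with a promoter window, 6 held GTNNCCNNGGNNAC and 8 held an X-box of either form. In the whole primary cilium list an X-box of either form was present in 17 of 41 genes with a window, and in the motile list in 9 of 28, beside 219 of the 822 genes with a member region and a window overall.

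Small GTPases and carriers of lipid-modified cargo deliver proteins to the ciliary membrane, and 10 of 17 such genes had a member region. Cfap36, a partner of the GTPase Arl3, led with 97.2 and 98.5. Arl2bp, Arl13b, Tulp3, Rab28, Arl3 and Rpgr were among the rest. Arl13b, the GTPase of the ciliary membrane, had 84.9 and 85.3. Of 28 genes of the centriole and its distal appendages, 7 had a member region, with Cep89 highest (94.8 and 97.1, shared with Faap24), then Cep135, Ccp110, a cap protein of the centriole that holds back cilium growth, and Ccdc61. Of 15 ciliary kinase and disassembly genes 4 had a member region, among them Nek2, Mok and Stk36. Stk36, whose region also reached Rnf25, had 98.8 and 87.6.

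Genes of beating cilia were also in reach. The radial spokes, the nexin-dynein complex and the central pair regulate the dynein arms, and 18 of 30 of their genes (60.0%, 42.3% to 75.4%) had a member region, against 1 with a region of all 3 factors and 1 with Rfx3 alone. After Gas8 came Hydin, a giant central pair protein (97.3 and 98.6), Rsph14 (94.9 and 95.5) and Rsph1 (92.2 and 96.6). Ccdc39 and Ccdc40, which together set the axonemal repeat, had Foxn3 percentiles of 91.6 and 81.0. Rsph4a was the lowest of the 18, with 55.0 and 65.0.

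Dynein heavy chains, the motors themselves, had member regions at 5 of 15 genes. They were Dnah6 (97.5 and 94.9), Dnah9 (96.8 and 89.2), Dnah10 (90.8 and 76.3, with Atp6v0a2 in reach), Dnah11 (82.1 and 64.2) and Dnah5 (72.7 and 68.0). None of these 5 promoter windows held an X-box of either form. Among the 15 heavy chain genes, 0 had a region with all 3 factors and 3 (20%) had one with Rfx3 alone. Of 16 genes that assemble dynein arms in the cytoplasm, 8 had a member region, led by Cfap298, Dnaaf3 (90.8 and 86.5), Zmynd10 (76.8 and 83.9) and Dnaaf1 (79.3 and 64.2). Other dynein subunits and docking genes had one in 3 of 10 matched cases, at Ttc25, Dnal1 and Dnali1, and 7 symbols of that list matched no gene. Wdr63 and Wdr78, older names for dynein intermediate chains, were outside that count and had member regions too, with 89.3 and 79.8 at Wdr63 and 89.8 and 74.1 at Wdr78, whose region also reached Mier1. Dnal1 was higher in the Rfx3 list (77.7, against 41.6 for Foxn3) and Dnali1 in the Foxn3 list (75.1, against 33.9 for Rfx3).

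Among 23 genes for Fox and Rfx factors and regulators of multiciliated cells, 4 had a member region: Foxj1, Ccno, Rfx2 and E2f5. Ccno, which acts in the mass production of centrioles, had percentiles of 87.5 and 75.4 and an X-box in its promoter window. Rfx2, a close relative of Rfx3, had 43.8 for Foxn3 and 91.5 for Rfx3, its region lay 265 bp upstream of its start, and its window held GTNNCCNNGGNNAC. E2f5, a partner in the multiciliated programme, had 41.6 and 71.6. In the Hedgehog pathway, which signals through the primary cilium, 3 of 22 genes had a member region. Among them were Iqce (70.8 and 82.5), a cilium-base protein, and Sufu (19.0 and 46.4), the inhibitor of Gli factors.

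Retinal gene lists were near the background. None of 34 transcription factors of retinal cell fate had a member region (3 counts, the limit used for a count of 0, would be 8.82%, and the Wilson upper limit is 10.2%), and 1 had a region with all 3 factors and 2 with Rfx3 alone. Of 32 photoreceptor and Usher syndrome genes 2 did, Rpgr (77.6 and 28.5) and Spata7 (26.7 and 67.2), both of the connecting cilium. Of 23 DNA damage checkpoint genes the only one was Trp53 (80.5 and 55.1). Its region lay 179.5 bp upstream of the nearest annotated start, that of Wrap53, and both Wrap53 and Trp53 had an end within 1 kb. Of the 23 checkpoint genes, 3 (13.0%) had a region with all 3 factors, beside 3.03% of all protein-coding genes, and 0 had one with Rfx3 alone.

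Ribosomal protein and proteasome genes, the only general sets listed, were also close to the background. The counts were 6 of 79 ribosomal protein genes (7.59%, 3.53% to 15.6%) and 2 of 31 proteasome genes. This does not extend to general genes as a whole. Grouped by the stem of the symbol, Gtf genes were higher, at 4 of 23 (17.4%), and Eif genes lower, at 1 of 56 (1.79%). Rps3 was highest of the ribosomal genes (89.5 and 87.8), and Psmd13, with Sirt3 in reach, of the proteasome genes (92.3 and 90.4). The region of Rpl35a also reached Iqcg, a gene of the motile cilium list.

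The sequence of the promoters was not used to choose the regions and could be compared between them. Letters were searched on both strands of the RefSeq windows, in which 17492 of the 21887 protein-coding genes, and 822 of the 1004 with a member region, had at least 1 window. GTNNCCNNGGNNAC was present in 15.3% of the 822 genes (126, 13.0% to 17.95%), against 6.14% of 570 genes with an all-factor region, 9.74% of 462 with an Rfx3-only region and 2.26% of all genes. Genes with regions of more than 1 of these classes were counted with the first in that order. The looser pyrimidine-purine X-box, which does not include every match of the first form, was in 23.6%, 8.60%, 15.2% and 4.29%. The arm GTTGCC, which is part of many X-boxes and overlaps that count, was in 34.4%, 19.5%, 26.0% and 14.3%.

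The difference in X-box share was 9.19 points against all-factor genes (5.95 to 12.3) and 5.59 points against Rfx3-only genes (1.77 to 9.13). Counted over overlapped windows in place of genes, the second difference was 4.11 points (-0.04 to 7.91), an interval that includes 0. Among Foxn3 and Rfx3 peaks at or above the median score of their lists, the X-box share was 20.2% in member genes and 14.7% in all-factor genes, and that difference, 5.52 points, had an interval of -0.99 to 11.2 that includes 0 as well.

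Forkhead letters followed another pattern. The classical forkhead letters GTAAACA or ATAAACA were in 5.23% of the member genes (3.91% to 6.97%), 4.04% of all-factor genes, 4.55% of Rfx3-only genes and 7.76% of all genes. The forkhead-like core GACGC was in 59.1% of member genes, 59.3% of all-factor genes, 44.2% of Rfx3-only genes and 36.3% of all genes. Members exceeded Rfx3-only genes by 15.0 points for GACGC (9.28 to 20.5), and their difference from all-factor genes was -0.17 points (-5.39 to 5.08). GACGC contains the dinucleotide CG. The windows of the regions had a median of 22 such dinucleotides, 23 with all 3 factors, 22 with Rfx3 alone and 13 over all windows, and their part in the shares was not tested.

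**Figure D4:**
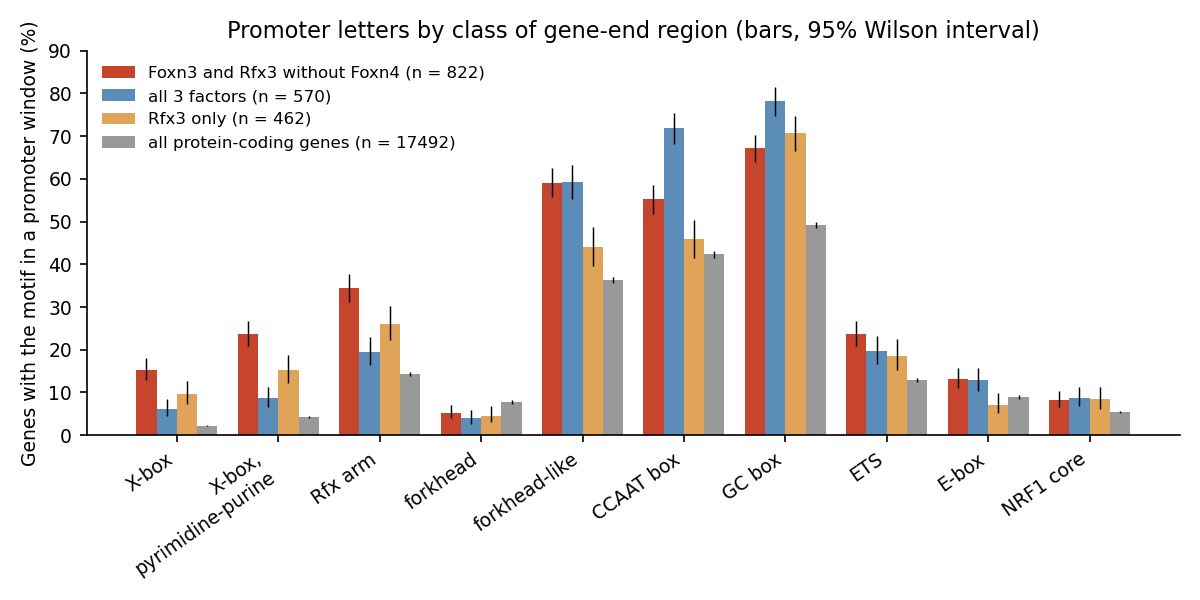
Percentage of genes with each set of letters in a promoter window (y axis, bars with 95% Wilson intervals) for genes with a member region (n = 822), a region with all 3 factors (n = 570), a region with Rfx3 alone (n = 462) and all protein-coding genes (n = 17492). The X-box bars are highest for the member genes, at 15.3%, and the CCAAT bars for the genes with all 3 factors, at 71.9%.

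The CCAAT and GC boxes were less frequent in member genes than in all-factor genes. The CCAAT box, bound by NF-Y, was in 55.2% of member genes, 71.9% of all-factor genes, 45.9% of Rfx3-only genes and 42.3% of all genes. The difference from all-factor genes was -16.7 points (-21.6 to -11.6). The GC box GGGCGG, bound by Sp1, was in 67.2% of member genes and 78.2% of all-factor genes, a difference of -11.1 points (-15.7 to -6.35). The E-box CACGTG was in 13.3% and 12.8% of these and in 7.14% of Rfx3-only genes. CCGGAAG, bound by ETS factors, was in 23.7% of member genes, 19.6% of all-factor genes and 18.6% of Rfx3-only genes. Its difference from all-factor genes was 4.07 points by gene (-0.37 to 8.37) and 6.95 points by window (2.70 to 11.1). The NRF1 core CATGCGC was in 8.27%, 8.77% and 8.44%. Over all protein-coding genes the shares were 49.2% for GGGCGG, 8.91% for CACGTG, 12.9% for CCGGAAG and 5.40% for CATGCGC. As for GACGC and CCAAT, the share of the member genes was above that of all genes for each of these. Median GC content of the windows was 60.7% in the members, 61.3% with all 3 factors, 63.7% with Rfx3 alone and 56.3% overall.

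Within the members the X-box became more frequent with the score of both peaks. A protein-coding promoter window was overlapped by 621 of the 797 regions, and 113 of these 621 (18.2%) held GTNNCCNNGGNNAC. With the 621 split into 4 groups of like size by Rfx3 score, from low to high, the share was 2.56% (1.00% to 6.41%), 18.1%, 18.7% and 33.5% (26.6% to 41.3%). By Foxn3 score it was 7.69%, 15.5%, 24.5% and 25.2%. The share with the looser form was 7.69% at the lowest and 47.7% at the highest Rfx3 scores, and 8.97% and 40.0% in the matching Foxn3 groups. GACGC had a share of 50.6% at the lowest and 73.5% at the highest Foxn3 scores. CCAAT showed the other order, with 70.5% at the lowest Rfx3 scores and 51.6% at the highest. Regions with an X-box had median percentiles of 79.3 for Foxn3 and 83.9 for Rfx3, and those without one 65.0 and 67.9.

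Because members also had higher Rfx3 scores than the other classes, shares were set side by side within bands of the Rfx3 percentile. In the band from 75 to 100 the X-box share was 26.9% of 286 members (22.1% to 32.3%), 17.4% of 115 all-factor regions (11.5% to 25.3%) and 30.3% of 33 Rfx3-only regions (17.4% to 47.3%). Between 50 and 75 it was 18.4%, 6.15% and 29.7%, between 25 and 50 8.60%, 1.69% and 12.1%, and under 25 1.05%, 1.28% and 2.45%. For these letters the share of Rfx3-only regions was not below that of the members in any band, with overlapping intervals in each, although over all genes it was lower. For the looser X-box the shares of members and Rfx3-only regions were 41.6% and 36.4% from 75 to 100, 25.2% and 40.6% from 50 to 75, 11.8% and 17.6% from 25 to 50, and 6.32% and 4.91% under 25, again with overlapping intervals. The CCAAT share of the members was below that of all-factor regions in each band, by the least between 25 and 50 (63.4% against 66.1%) and by the most between 50 and 75 (51.7% against 72.3%). The intervals overlapped in the lower 2 bands and did not in the upper 2. GACGC in the highest band was in 65.4% of members, 63.5% of all-factor regions and 42.4% of Rfx3-only regions.

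**Figure D5:**
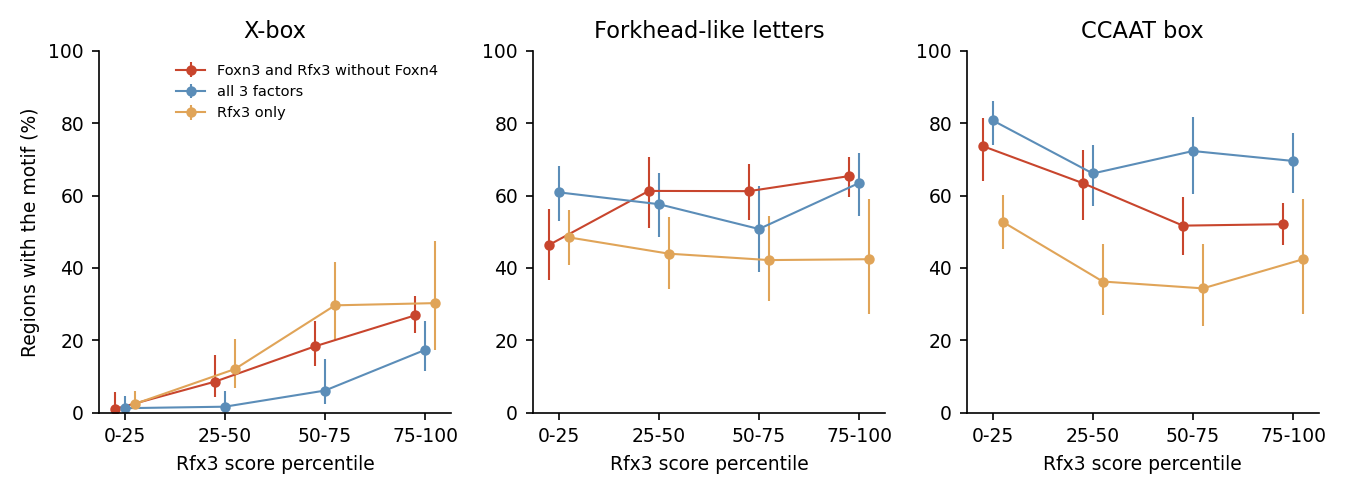
Percentage of regions with the X-box, the forkhead-like letters and the CCAAT box in an overlapped promoter window (y axes) in 4 bands of the Rfx3 score percentile (x axes), with 95% Wilson intervals. The X-box share of the members climbs from 1.05% to 26.9%, and their CCAAT share stays below that of the regions with all 3 factors.

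The X-box lay near the middle of the peaks. The 117 X-box places in overlapped windows were a median of 39.5 bp from the midpoint of the Foxn3 peak and 62 bp from that of the Rfx3 peak, where all bases of these windows had medians of 102 and 110 bp. Within 50 bp of the Foxn3 midpoint lay 62.4% of the X-boxes (53.4% to 70.6%) and 25.8% of all window bases, and within 50 bp of the Rfx3 midpoint 44.4% (35.8% to 53.5%) and 24.3%. The X-box was nearer the Foxn3 midpoint in 69 places, nearer the Rfx3 midpoint in 46 and equally near in 2. Foxn3 peaks were also the narrower ones, and the part of width in this was not tested.

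Apart from the X-box and its arm, CCAAT boxes were nearest, at medians of 57.5 bp from the Foxn3 and 71.5 bp from the Rfx3 midpoint. GACGC lay at 81 and 90 bp, GGGCGG at 83.5 and 89.5 bp, and the 36 classical forkhead places at 117 and 118 bp. Of these few forkhead places 27.8% lay within 50 bp of the Foxn3 midpoint (15.8% to 44.0%) and 25% within 50 bp of the Rfx3 midpoint (13.8% to 41.1%), close to the shares of all window bases. An X-box and GACGC were both present in 69 of the 113 regions with an X-box, and an X-box with classical forkhead letters in 3. No arm GTTGCC, X-box of either form, GACGC or forkhead letters were found in 122 of the 621 regions.

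The 1 kb limit cut through few regions. Just inside it lay the regions of Ap3m2 at 960.5 bp from a gene end, Ireb2 at 957 bp and Fam222a at 952 bp, with Foxn3 percentiles of 65.7, 66.4 and 75.4 and Rfx3 percentiles of 79.1, 44.8 and 61.5. Just outside lay those of Nipal3 at 1003 bp, Jund at 1017.5 bp and Pbx3 at 1053.5 bp, with 57.6, 84.1 and 28.8 for Foxn3 and 79.4, 94.7 and 76.0 for Rfx3. The Ireb2 region was nevertheless 140 bp upstream of the start that the promoter window of that gene uses.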

How the data were processed

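The data were 3 deposited peak lists in BED form on mm10, per the file headers, 1 for each antibody, and the 8 IgG libraries were not analysed here. Column 5 of each list holds a score that the authors deposited without stating its scaling, so it was used for percentiles within a list and not compared in size between lists. The submitters' processing notes name cutadapt, Bowtie2, UMI-tools, bedtools and SEACR, with no role, order or version. The total count of reads behind a peak is unknown.

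Peaks were merged at an overlap of at least 1 bp with Python 3.11.15 and pandas 2.3.3, after the merging and the letter search had been tested on simulated data. Gene ends came from RefSeq on GRCm38.p6 (21887 protein-coding genes). That table has no strand or exons, so strand and starts were taken from the RefSeq promoter windows (21263 windows of protein-coding genes), and regions outside these windows have no sequence here. A gene counted once for each class, and genes in several classes were left out of the later ones in the letter comparison. No test was run, because no library has values of its own.

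The regions, the gene lists and the letters were chosen with earlier results of these data known. Genes named were the 10 highest and 5 lowest by mean percentile, the 4 highest of each gene list, the 3 regions on either side of the 1 kb limit, the 3 nearest a Foxn4 peak and 5 with several peaks of a factor. Some genes that this rule names are not reported here. Further list members were named after their values were seen, and the looser letters of the X-box were chosen in the same way. These letters ask only for a pyrimidine or a purine at some places where the first form has a fixed letter. At some places that are free in the first form they also ask for a pyrimidine or a purine. A match to the first form can therefore fail the looser form, as at Tctn2. Alternatives changed the distance, the overlap, the score minimum, the distance to Foxn4 and the letters.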

Additional observations from a re-analysis of the deposited data

How the results depend on the processing

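The number of regions was 734 with a limit of 500 bp, 977 with 5 kb, 796 when peaks were joined at 50% overlap only, 794 without those that had a Foxn4 peak within 500 bp, and 969 when only Foxn4 peaks at or above their median score counted. It was 478, at 593 genes, when Foxn3 and Rfx3 peaks below their median scores were left out. In these settings 39 to 53 primary cilium genes and 31 to 38 motile cilium genes had a region. The X-box share was 11.9% with 5 kb, 20.2% with the higher-scoring peaks, 19.8% with a spacer of 1 to 3 bases and 23.6% in the pyrimidine-purine form, an alternative chosen after seeing the data. The share of the arm GTTGCC was 31.0% with 5 kb, 39.9% with the higher-scoring peaks and 43.7% with GTTACC counted too. The cause was not tested. All other planned settings left these results within 1.5 times the count or inside the interval of the share. No paired analysis was possible because the peak lists hold no values of single libraries, and for the same reason no replicate could be left out. Depth limits every absence of a peak to an extent that these lists do not show.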

Other observations

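Genes grouped by the stem of their symbol, without any list of functions, gave further families with a member region, beside 4.59% of all protein-coding genes. Of stems with at least 20 genes, Cfap, used for cilia and flagella associated proteins, had the highest share, 14 of 34 genes (41.2%), against 1 gene with an all-factor region and 3 with an Rfx3-only region. Cep, used for centrosomal proteins, had 9 of 38 (4 and 4 in the other classes, in that order). Stk, used for serine/threonine kinases, had 5 of 22 (1 and 3). Wdr, used for proteins with WD repeats, had 13 of 65 (20.0%, with 2 and 4). Ccdc, used for coiled-coil proteins, had 24 of 137 (17.5%, with 7 and 7). Arl, used for small GTPases, had 5 of 27 (1 and 0), and Vps, used for proteins of vesicle sorting, 5 of 35 with none in the other classes. Kif, used for kinesins, had 5 of 38 (13.2%), with 1 gene in the all-factor class and 4 in the Rfx3-only class. The remaining stems with a share above that of Kif were Gtf, Ap, Ddx and Lrrc. Gtf had 4 of 23 (17.4%, with 0 and 3) and Ap 4 of 29 (13.8%, with 3 and 2). Ddx had 5 of 37 (13.5%, with 2 and 3) and Lrrc 9 of 67 (13.4%, with 0 and 2).

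At the other end, Zfp, used for zinc finger proteins, had 10 of 397 genes, Slc, used for solute carriers, 9 of 375, and Eif, used for translation initiation factors, 1 of 56, where 7 Eif genes had an all-factor region. None of the 1110 olfactory receptor genes named Olfr, the 355 vomeronasal receptor genes named Vmn or the 99 cytochrome P450 genes named Cyp had a member region. The families were chosen for naming after their values were seen, and no test was made.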
